A study of Mus musculus with 8 samples.

Results

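Of 29158 long non-coding RNA transcripts listed for whole mouse embryos, 39 stood higher in both columns from embryos that had inherited an insertion at Gtl2 from their mother. The 39 were chosen by their measured values. A transcript was taken if it reached 0.5 FPKM (fragments scaled for transcript length and for the size of the library) in at least 2 of the 4 columns and stood at least 2-fold above WT in MKI and at least 2-fold above PKI in HOMO. The 2-fold threshold is a difference of 1 on the log2(FPKM + 0.5) scale, on which all differences below are given and which understates the fold of weak transcripts. The first condition left 6181 transcripts, so the 39 are 0.631% of those above it. The unit FPKM is inferred, as described with the processing of the data.

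The embryos carried 3 polyadenylation cassettes, which cut a growing transcript short, in the promoter of Gtl2 (also called Meg3), placed there by Easi-CRISPR, a form of genome editing with a long single-stranded template. WT embryos had no insertion, PKI embryos had it on the paternal copy, MKI embryos on the maternal copy and HOMO embryos on both copies. The design text gives embryonic day 12.5 for all, while the sample titles give a day that is a little later in PKI than WT, later again in MKI and later again in HOMO. The labels hold 2 samples per genotype and each table has 1 column per genotype, so no difference here has a replicate check and no p-value is given; the sources used here do not state the strain, the sex or the number of embryos per sample. Where 4 levels follow each other below, they are those of WT, PKI, MKI and HOMO in this order.

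Long non-coding RNAs are transcripts without a recognised protein product. Most are present at low levels, many are restricted to a tissue or a stage, and a single locus often gives several overlapping transcripts that differ in their exons or ends. Gtl2 is the first of a chain of such RNAs read from the maternal copy of the Dlk1-Dio3 imprinted domain on chromosome 12, the same chain that carries a large group of microRNAs. The comparison of MKI with WT asks what goes with a maternal insertion when the paternal copy is intact, and that of HOMO with PKI asks the same when the paternal copy carries the insertion as well. These pairs share no column.

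As a check of the labels, the 105 mature microRNAs that RefSeq places between Dlk1 and Dio3 (GRCm38, chromosome 12, 109452485 to 110281097) summed to 136579 RPM (reads scaled so that all columns have the same sum) in WT and 124283 RPM in PKI, against 4068 RPM in MKI and 4244 RPM in HOMO. Among the long non-coding transcripts MKI was the column least like the rest. Across the 6181 transcripts, which share libraries and are not independent, Pearson's r between log2 columns lay between 0.581 and 0.595 for MKI with each other column and between 0.723 and 0.793 among the other columns. The summed FPKM of the long non-coding table was 15573 in MKI and between 38677 and 66401 in the other columns, where 1 assembled transcript, MSTRG.23398.6, took between 32.2% and 44.7% of the sum. The median of all 6181 differences was 0.23 for MKI against WT and -0.09 for HOMO against PKI, and the differences of single transcripts should be read against these medians. The read depth behind these FPKM values is unknown.

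The 39 transcripts are the overlap of a larger list from each pair. In MKI 402 transcripts (6.50% of 6181) were at least 2-fold higher than in WT, and in HOMO 175 (2.83%) were at least 2-fold higher than in PKI. The overlap thus made up 9.7% of the first list and 22.3% of the second. In the opposite direction 97 transcripts (1.57%) were 2-fold lower in both pairs. A further 50 transcripts were 2-fold higher in the first pair and 2-fold lower in the second, and 36 had the reverse pattern. Since both pairs were used to choose the 39, these values describe the choice and nothing is read from them.

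**Figure D1:**
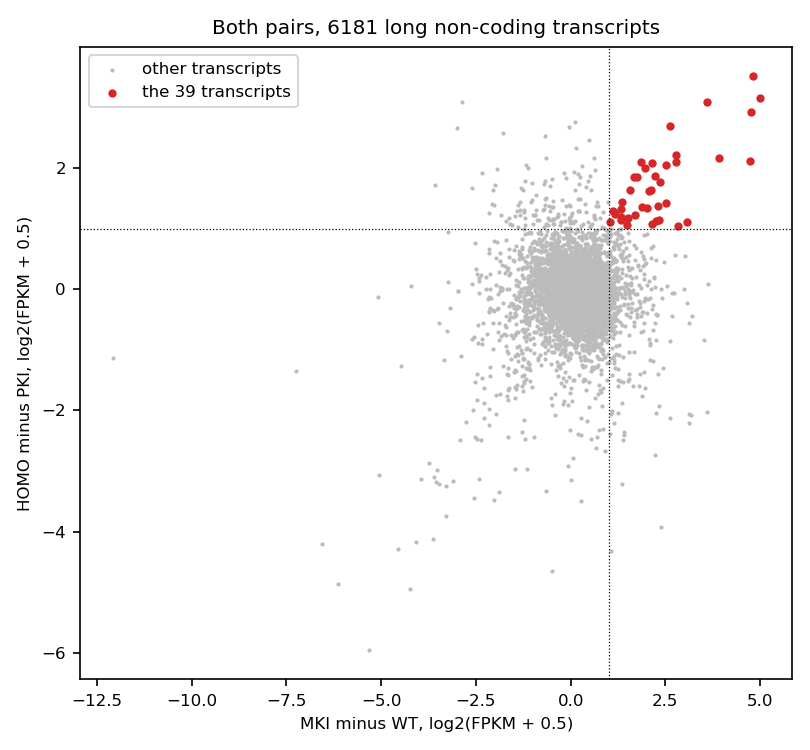
Each point is 1 of 6181 long non-coding transcripts, with the MKI minus WT difference on the horizontal axis and the HOMO minus PKI difference on the vertical axis, both on the log2(FPKM + 0.5) scale. The 39 red points lie at or beyond 1 (dotted lines) on both axes and reach 4.99 and 3.52.

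Most of the 39 were at or near 0 in WT and PKI. Their median level was 0.0262 FPKM in WT and 0.00327 FPKM in PKI, against 2.34 FPKM in MKI and 1.63 FPKM in HOMO. For all 6181 transcripts the medians were 0.933, 0.808, 1.15 and 0.740 FPKM. In both WT and PKI, 31 of the 39 were below 0.5 FPKM, and 29 were below it in both columns at once. Of all 6181, 737 were below 0.5 FPKM in WT and 1203 in PKI. The highest WT level among the 39 was 2.48 FPKM and the highest PKI level was 1.72 FPKM. The MKI levels ran from 0.639 to 16.6 FPKM, with 9 transcripts at 5 FPKM or more, and the HOMO levels from 0.608 to 9.04 FPKM, with 3 at 5 FPKM or more. Of all 6181, 195 were at 5 FPKM or more in MKI and 75 in HOMO.

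A value of exactly 0 was common in WT and PKI. Of the 39 transcripts 16 (41.0%) were listed at 0 in WT and 18 (46.2%) in PKI, against 1.84% and 1.76% of all 6181. In both columns together 12 were listed at 0. Every one of the 6181 transcripts listed at 0 in both WT and PKI is among the 39, as the arithmetic of the rule requires: such a transcript passes the level condition only if MKI and HOMO are both at 0.5 FPKM or more, and that already makes both differences at least 1. For the 22 transcripts at 0 in at least 1 of the 2 columns the size of that difference depends on the added 0.5 FPKM, and no fold is given against a column listed at 0. The 17 transcripts with a value above 0 in both columns had median differences of 1.87 for MKI against WT and 1.34 for HOMO against PKI, compared with 2.14 and 1.62 for all 39.

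**Figure D2:**
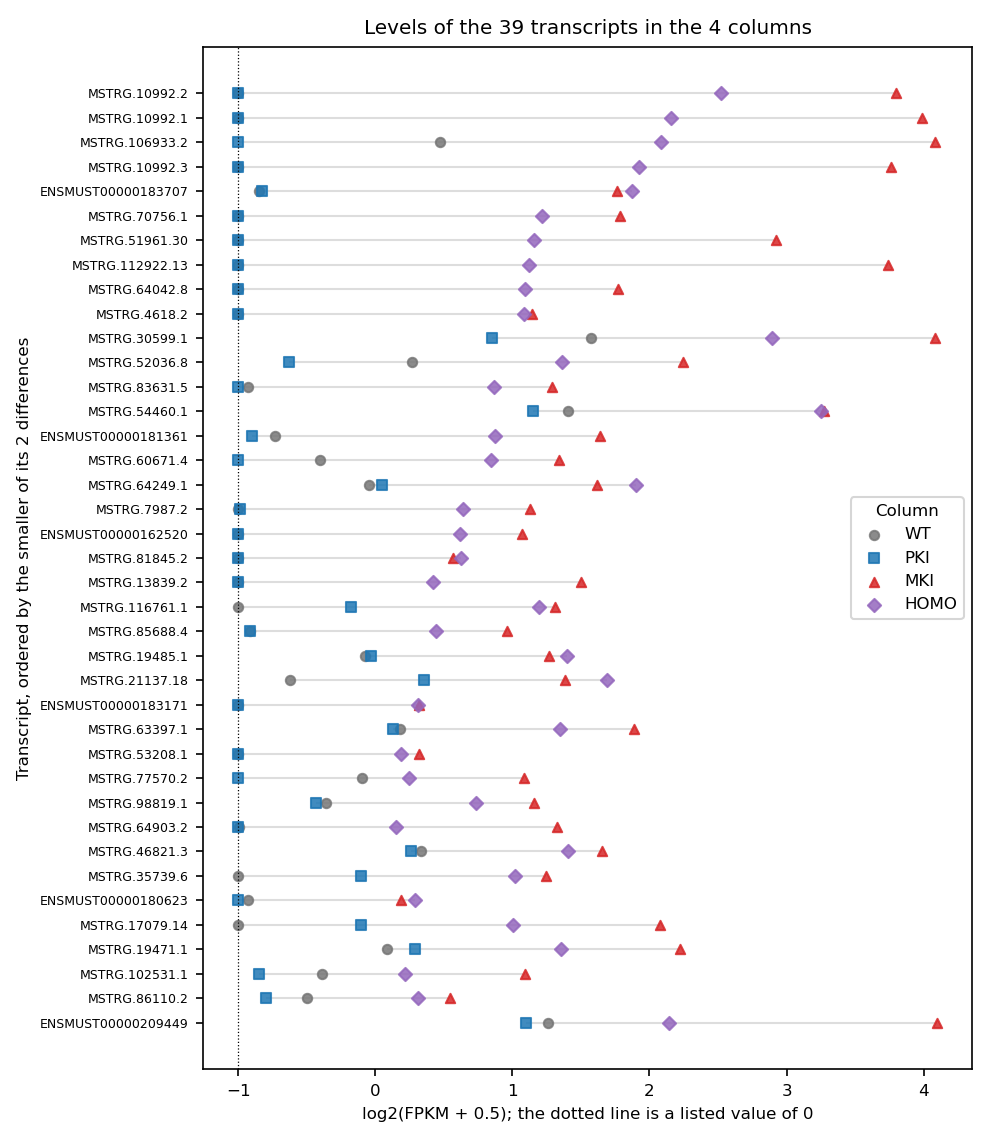
Levels of the 39 transcripts on the log2(FPKM + 0.5) scale, 1 row per transcript and 1 symbol per column, ordered by the smaller of the MKI minus WT and HOMO minus PKI differences. The dotted line marks a listed value of 0, where 12 transcripts have both their WT and their PKI symbol, and the MKI triangle is the rightmost symbol in 33 of the 39 rows.

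Locus MSTRG.10992, newly assembled by the authors, stood first. It was the only assembled locus with more than 1 transcript among the 39, and all 3 of its listed transcripts are in the group. MSTRG.10992.1 stood at 0, 0, 15.3 and 3.96 FPKM. MSTRG.10992.2 stood at 0, 0, 13.4 and 5.24 FPKM. MSTRG.10992.3 stood at 0, 0, 13.1 and 3.29 FPKM. All 3 were thus listed only in the columns with a maternal insertion, and each was between 2.56-fold and 3.98-fold higher in MKI than HOMO. Transcripts of 1 locus can share reads, so they are not 3 independent observations, and their sum was 41.9 FPKM in MKI and 12.5 FPKM in HOMO.

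The 33 assembled members come from 31 loci, and in 11 of these the sum over all listed transcripts of the locus was itself 2-fold higher in both pairs. They are the 7 loci with a single listed transcript, MSTRG.10992 and 3 others. MSTRG.30599.1, which had the highest mean of the MKI and HOMO columns, stood at 2.48, 1.301, 16.4 and 6.95 FPKM. It was 6.62-fold higher in MKI than WT and 5.34-fold higher in HOMO than PKI, with no value at 0. MSTRG.70756.1, also the single listed transcript of its locus, stood at 0, 0, 2.94 and 1.82 FPKM. MSTRG.54460.1, chosen for mention after its values were seen because MKI and HOMO were nearly equal, stood at 2.15, 1.72, 9.16 and 9.04 FPKM. The other listed transcript of its locus, MSTRG.54460.2, stood at 0, 0, 9.91 and 0.0927 FPKM, high in MKI alone.

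Transcripts with an Ensembl identifier numbered 6 of the 39 (15.4%), close to their share of 14.2% among the 6181. The tables used here pair gene identifiers and not transcript identifiers with names, so these 6 and the 33 assembled transcripts are given by identifier. ENSMUST00000183707 had the highest value of the 6 when each was ranked by the smaller of its 2 differences, and stood at 0.0564, 0.0632, 2.90 and 3.15 FPKM (differences 2.61 and 2.70). Both WT and PKI were thus near 0 and both MKI and HOMO near 3 FPKM, with HOMO the higher. ENSMUST00000181361 stood at 0.103, 0.0362, 2.61 and 1.33 FPKM, and ENSMUST00000162520 at 0, 0, 1.60 and 1.04 FPKM.

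The remaining Ensembl transcripts lay near a limit of the rule. ENSMUST00000183171 stood at 0, 0, 0.750 and 0.744 FPKM. ENSMUST00000180623 stood at 0.0262, 0, 0.639 and 0.721 FPKM, the lowest MKI level of the 39. ENSMUST00000209449 was the most abundant of the 6 and the highest of the 39 in MKI, at 1.89, 1.64, 16.6 and 3.90 FPKM. It was 8.78-fold higher in MKI than WT but 2.38-fold higher in HOMO than PKI, and its second difference, 1.04, was the smallest of the group. Next inside the threshold was MSTRG.86110.2 (smaller difference 1.04), and the first transcripts outside it were MSTRG.69306.1 and MSTRG.6878.30 (both 1.00 after rounding and below the threshold).

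In the remaining loci 1 transcript met the rule and the summed locus did not. Another transcript of a locus could fall just short of the threshold. MSTRG.52036.18, in the locus of MSTRG.52036.8, stood at 0.176, 0.680, 2.09 and 1.70 FPKM (differences 1.94 and 0.90). Of the 31 loci 24 have more than 1 listed transcript, and in 23 of these the locus also lists transcripts outside the group. Summed over its listed transcripts, the locus was 2-fold higher in both pairs for 3 of the 23, in the first pair for 7 and in the second pair for 4. Over all 23 summed loci, these 3 included, the median difference was 0.65 for MKI against WT (range -0.40 to 4.39). For HOMO against PKI it was -0.05 (range -0.89 to 2.12), and 13 of the 23 were lower in HOMO than PKI. Over all 4903 assembled loci with a sum of 0.5 FPKM or more in at least 2 columns, 15 (0.306%) were 2-fold higher in both pairs, and 11 of those 15 hold a member of the 39. For 11 of the 31 loci the transcript numbers run past the number of transcripts listed here; the others were not analysed here.

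**Figure D3:**
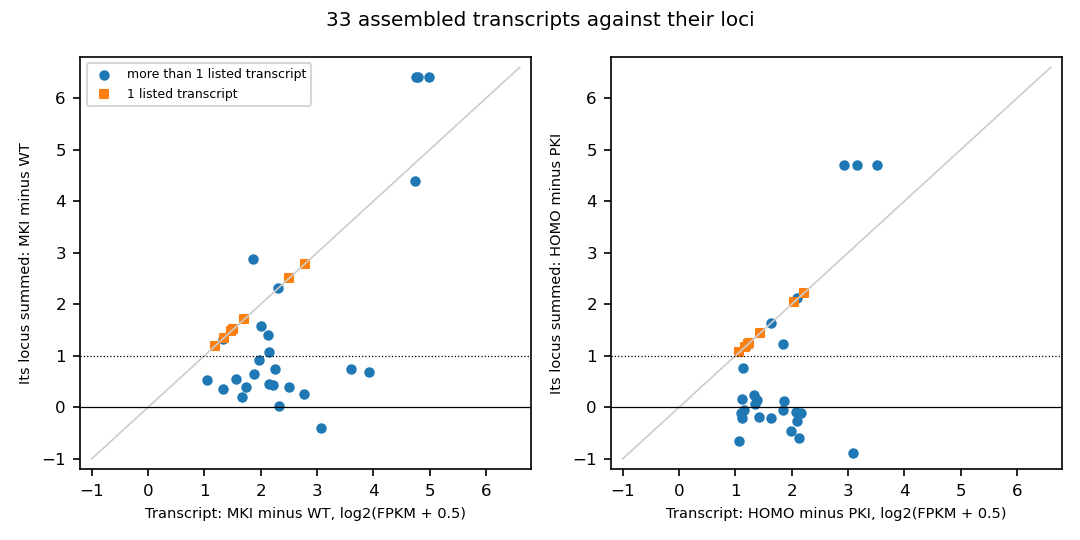
The 33 assembled transcripts, with the transcript's difference on the horizontal axis and that of the sum of all listed transcripts of its locus on the vertical axis, for MKI minus WT (left) and HOMO minus PKI (right), on the log2(FPKM + 0.5) scale. Squares are loci with 1 listed transcript and lie on the grey line of equal values; most circles lie below it, and in the right panel 13 loci lie below 0.

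Locus MSTRG.106933 is an example. MSTRG.106933.2 stood at 0.888, 0, 16.4 and 3.74 FPKM. MSTRG.106933.3, from the same locus, stood at 10.9, 9.34, 2.64 and 2.46 FPKM, with differences of -1.87 and -1.73. The first of the pair was low where the second was high. The locus as a whole stood at 12.1, 12.82, 20.6 and 6.71 FPKM, so that HOMO was lower than PKI, while the share of MSTRG.106933.2 in it was 7.31% in WT and 0% in PKI but 79.5% in MKI and 55.7% in HOMO.

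Other loci resembled it in part. MSTRG.51961.30 stood at 0, 0, 7.07 and 1.74 FPKM, whereas MSTRG.51961.29 stood at 4.66, 4.63, 0.942 and 2.48 FPKM. The third listed transcript of that locus, MSTRG.51961.27, was highest in MKI like the member, at 4.30, 3.49, 6.69 and 3.25 FPKM, and the summed locus stood at 8.97, 8.12, 14.7 and 7.47 FPKM. MSTRG.64042.8 stood at 0, 0, 2.92 and 1.63 FPKM, and MSTRG.64042.9 at 3.24, 2.07, 1.04 and 0 FPKM. MSTRG.51961.29 and MSTRG.64042.9 were thus highest in WT, where the members of their loci were listed at 0. MSTRG.4618.2 stood at 0.000546, 0, 1.71 and 1.62 FPKM, and MSTRG.4618.1 at 1.75, 1.77, 2.52 and 0 FPKM, so that both were highest in MKI, while PKI listed only the second of them and HOMO only the first, and the locus summed to 1.77 FPKM in PKI and 1.62 FPKM in HOMO. MSTRG.112922.13, at 0, 0, 12.9 and 1.68 FPKM, had the largest ratio of MKI to HOMO in the group (7.69-fold). Its locus summed to 0.182, 2.78, 13.8 and 1.68 FPKM and was thus high in MKI alone.

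**Figure D4:**
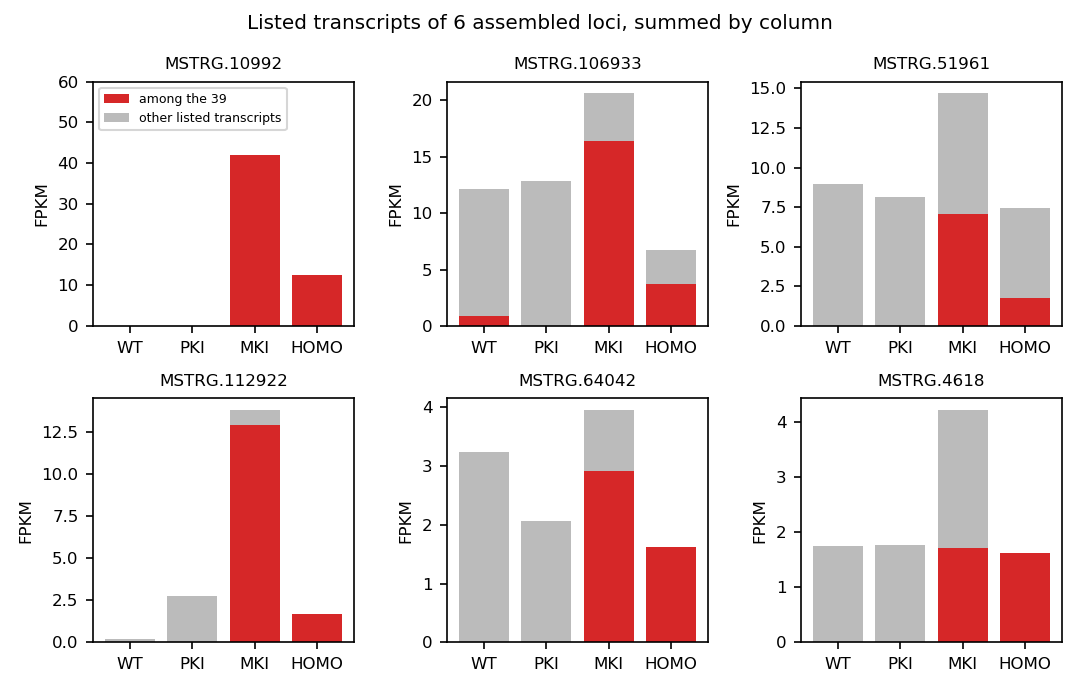
Summed FPKM of the listed transcripts of 6 assembled loci in the 4 columns, with the transcripts among the 39 in red and the other listed transcripts of the locus in grey, each panel with its own scale from 0. MSTRG.10992 is listed in MKI and HOMO alone, at 41.9 and 12.5 FPKM, whereas in MSTRG.106933, MSTRG.51961, MSTRG.64042 and MSTRG.4618 the red share is larger in MKI and HOMO than in WT and PKI and the summed level is lower in HOMO than in PKI.

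The other transcripts of these loci were examined together. Of 73 listed transcripts outside the group, 29 in 18 loci were above the level condition. Of these 29, 4 (13.8%) were 2-fold lower in both pairs, beside 1.57% of all 6181, while 9 were 2-fold below WT in MKI and 10 were 2-fold below PKI in HOMO, beside 6.26% and 4.29% of all 6181. In the other direction 4 were 2-fold above WT in MKI and 1 was 2-fold above PKI in HOMO, beside 6.50% and 2.83% of all 6181. Their median differences were -0.18 for MKI against WT and -0.62 for HOMO against PKI. These 29 exclude every transcript 2-fold higher in both pairs, and their loci were chosen for holding such a transcript. The 6181 are therefore not a like background for them, and nothing is read from the comparison of shares. Besides MSTRG.106933.3 and MSTRG.64042.9, those lower in both pairs were MSTRG.60671.3, at 1.07, 1.08, 0 and 0 FPKM, and MSTRG.19471.3, at 2.37, 0.944, 0 and 0 FPKM. FPKM of overlapping transcripts come from dividing shared reads among them, so how far this pattern follows that division was not tested.

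The remaining 23 transcripts, MSTRG.54460.1 among them, are given by their ranges. Their WT levels ran from 0 to 2.15 FPKM (median 0.209), their PKI levels from 0 to 1.72 FPKM (median 0.146), their MKI levels from 0.750 to 9.16 FPKM (median 1.98) and their HOMO levels from 0.608 to 9.04 FPKM (median 1.33). Their differences ran from 1.04 to 3.08 (median 1.87) for MKI against WT and from 1.06 to 2.10 (median 1.34) for HOMO against PKI.

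Across the columns that the rule did not set against each other, few of the 39 differed between WT and PKI on the scale used, on which the added 0.5 FPKM keeps differences between levels near 0 small. None was 2-fold higher in PKI than WT and 1, MSTRG.106933.2, was 2-fold lower, beside 3.03% and 3.46% of all 6181. With 0.1 FPKM added in place of 0.5, 9 of the 39 were 2-fold apart. The same count over all transcripts was not made at that setting, so nothing is read from the 9. MSTRG.21137.18, chosen for mention after its values were seen, stood at 0.151 FPKM in WT and 0.778 FPKM in PKI. The differences ran from -1.47 to 0.97 with a median of 0. Between the columns with a maternal insertion, none was 2-fold higher in HOMO than MKI and 11 (28.2%) were 2-fold lower, beside 4.85% and 12.1% of all 6181. MKI exceeded HOMO in 33 of the 39 (84.6%), and in 76.1% of the 6181, so that a large part of all transcripts shared this order. The median HOMO minus MKI difference was -0.52 for the 39 and -0.45 for the 6181. Scaling the columns by trimmed means of log ratios over the long non-coding transcripts centres all transcripts near 0 by design. The medians of the 39 and of all transcripts above the level condition then came to 0.00. With such factors from the mRNA table these medians were -0.59 and -0.51. In all 39 the lower of MKI and HOMO was above the higher of WT and PKI, an order found in 11.6% of the 6181 and largely fixed by the rule. These comparisons reuse the columns that chose the 39 and are a description.

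The columns also differed in the make-up of the embryos' RNA, and in a whole embryo a smaller number of cells of a type and less RNA per cell cannot be told apart. Y-linked RNA, measured by Kdm5d, Ddx3y, Uty and Eif2s3y, was listed at 0 for all 4 genes in WT. These genes summed to 47.9 FPKM in PKI, 73.3 FPKM in MKI and 42.3 FPKM in HOMO, so that the first pair sets a column listed at 0 for Y-linked RNA against one with it, and both columns of the second pair have it. Of 10 hepatocyte genes 1 was 2-fold higher in both pairs, Alb (albumin), while 1 was higher and 2 were lower in MKI than WT and 8 were higher in HOMO than PKI, and their summed level was 695, 249, 1220 and 860 FPKM. Of 10 definitive erythroid genes none was 2-fold higher in MKI than WT, 5 were lower and 6 were higher in HOMO than PKI. In HOMO against PKI 3 of 5 yolk sac genes, 3 of 7 cartilage genes and both measured paternally expressed genes of the domain were 2-fold higher. The 3 yolk sac genes were Afp, Ttr and Rbp4, of which Afp and Ttr are also counted among the hepatocyte genes. In the same pair 3 of 7 epidermal genes were lower. No gene was 2-fold higher in both pairs among the other lists, which covered embryonic red cells, endothelium, neurons, neural progenitors, skeletal muscle, heart, cartilage, epidermis, mesenchyme, macrophages, placenta, yolk sac, germ cells, cell division, splicing factors, immediate early genes and the paternally expressed genes of the domain. Of the 8 germ cell genes none reached the level condition, and of the 8 placenta genes 1 did. In MKI against WT 2 of 8 macrophage and 2 of 8 skeletal muscle genes were lower, and several other lists had 1 gene past 2-fold in a single pair. Of all 122 marker genes tested, 5 were higher in MKI than WT, the 4 Y-linked genes among them, and 24 in HOMO than PKI. The share of all mRNA genes past 2-fold in a single pair was not computed, so nothing is read from these counts about a cell type. The part of RNA make-up in the levels of the 39 transcripts was not tested.

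The mRNA table gave few genes with the same pattern. Of 13284 genes at 1 FPKM or more in at least 2 columns, 13 (0.0979%) were 2-fold higher in both pairs, compared with 0.631% of the long non-coding transcripts. The first share is over genes and the second over single transcripts at a lower level condition, and the share of assembled loci, 0.306%, lies between them.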

How the data were processed

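Total RNA of whole embryos was selected with oligo(dT) beads and sequenced as paired ends from dUTP-marked libraries, per the labels' protocols. The submitters' processing notes name cutadapt 1.9, HISAT2 2.0.4, StringTie 1.3.4d and GRCm38. The file headers name no unit. The long non-coding and mRNA values deposited by the authors are read here as FPKM, since they are not whole and column sums differ, and the microRNA values deposited by the authors as RPM, since all columns have the same sum. Another length-scaled unit would also give unequal sums over a part of all transcripts, so FPKM is an inference. The sources used here do not state whether a column is 1 library or a combination.

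Differences are log2(FPKM + 0.5), computed with pandas 2.3.3 and NumPy 2.4.6 and checked on simulated data; limma, planned for 2 columns per genotype, could not be fitted with 1. The members and lists were chosen with earlier results of these data known. Named are the 10 members with the largest smaller difference (1 FPKM or more in MKI and HOMO), the 4 highest by mean MKI and HOMO level, all Ensembl transcripts and members sharing a locus. Loci are the assembled identifiers without their last number. Alternatives were other pseudocounts, filters, scalings and thresholds, 1 transcript per locus and, added after seeing the data, loci summed.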

Additional observations from a re-analysis of the deposited data

How the results depend on the processing

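Without the level condition the same 39 transcripts met the rule, a result fixed in advance. Differences of at least 1 in both pairs already put MKI and HOMO at 0.5 FPKM or more. The number of transcripts meeting the rule was 52 under quantile normalization, and 53 and 50 under trimmed-mean scaling from the long non-coding and mRNA tables. Of the 39, 36, 36 and 39 remained under these scalings. It was 115 with a pseudocount of 0.1 and 22 with 1, 14 with a level condition of 2 FPKM, 20 with a threshold of 1.5, 24 with 1 transcript per locus (the one highest on average) and 21 with loci summed, 6 of them Ensembl transcripts. Of all transcripts, those 2-fold above WT in MKI and above PKI in HOMO numbered 804 and 414 with a pseudocount of 0.1 and 202 and 71 with 1. They numbered 1067 and 378 without the level condition and 67 and 38 at 2 FPKM. Trimmed-mean scaling gave 266 and 266 from the long non-coding table and 559 and 190 from the mRNA table. Quantile normalization gave 283 and 268. Among the 39, those 2-fold apart in PKI and WT numbered 9 with a pseudocount of 0.1, 0 with 1 and 2 under each of the 3 scalings. Those lower in HOMO than MKI numbered 6 of 14 at 2 FPKM and 6 under trimmed-mean scaling from the long non-coding table. For both of these contrasts the counts over all transcripts were not made at these settings, so the counts of the 39 have no background. The marker genes 2-fold higher in both pairs numbered 2 with a pseudocount of 0.1. No difference of the 16 named transcripts changed sign under the 3 scalings, the only settings that could change one. Another level condition leaves each difference as it was, and another pseudocount changes its size but not its sign. Over all these settings 7 of 206 values lay below 1, 5 of them with a pseudocount of 1. Only that pseudocount and the 3 scalings could bring a value below 1. Another level condition repeats the main values, and a pseudocount of 0.1 can only enlarge them. All these transcripts were also chosen for differences of at least 1, so 7 of 206 is no measure of how stable the differences are. No paired analysis was possible because the columns carry no replicate number, and leaving out a replicate could not be done. The unknown depth limits what a value of 0 can show.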

Other observations

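The 13 genes of the mRNA table that were 2-fold higher in both pairs, found with the same thresholds after the values were seen, included 7 with a symbol (levels again in the order WT, PKI, MKI, HOMO). Alb, the main plasma protein of the liver, stood at 205, 81.1, 542 and 259 FPKM, and mt-Nd1, a mitochondrially encoded subunit of respiratory complex I, at 96.1, 95.8, 355 and 211 FPKM. Tpm3, a tropomyosin, stood at 19.06, 17.4, 45.0 and 43.1 FPKM, nearly level within WT and PKI and within MKI and HOMO. Pou3f3, a transcription factor of the developing brain and kidney, stood at 1.03, 0.420, 2.81 and 3.51 FPKM, and Zfp708, a zinc finger gene, at 2.03, 0.316, 5.61 and 2.69 FPKM. Hist1h3d stood at 23.8, 0.520, 167 and 116 FPKM. These levels are uncertain. Histone genes are close copies of each other, and how far this or another property of the gene affects its levels was not tested. Gm49333 was at 0, 0, 1.09 and 1.11 FPKM.

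The other 6 were newly assembled genes. Mus_musculus_newGene_32144 stood at 0, 0, 10.8 and 11.7 FPKM and Mus_musculus_newGene_48448 at 0.177, 0, 9.39 and 5.34 FPKM. The mRNA and long non-coding tables number their assembled entries differently, so whether any of these lies at a locus of the 39 transcripts was not tested.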
